A study of Mus musculus with 12 samples.

Results

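The genes described here act in DNA replication and cell division or in their control. They are 39 listed genes: 12 of S phase and DNA replication, 4 cyclins of the G1 phase, 2 inhibitors of cyclin-dependent kinases (CDKs) and 21 of the G2 phase and mitosis. They were found by gene symbol in an Affymetrix array data set, with the brightest probe set (highest mean signal over all arrays) standing for a gene. That gave 37 of the 39, out of 12393 genes measured in all; Ccnb1 and Cdca8 were not analysed here. The RNA came from cultured fibroblasts of the stromal vascular fraction, the cells of fat tissue other than its fat cells, and was measured on 12 arrays in 4 groups of 3. Depot and sort define the groups, with GFP+ and GFP- cells of the inguinal depot and the same 2 populations of the epididymal depot. The inguinal depot lies under the skin and the epididymal depot in the abdomen. All 4 groups came from male mice of 6 to 8 weeks, transgenic for Zfp423-GFP, on a background of FVB and C57BL/6. They were all grown in DMEM/F12 with 10% fetal bovine serum and, per the labels, were still proliferating when harvested. The GFP reporter marks fibroblasts with activity of Zfp423, a zinc-finger regulator that directs fibroblasts towards becoming fat cells. The cell cycle genes bear on how far such proliferating cultures differed in division between depots and between GFP+ and GFP- cells. The labels do not state whether replicates differ in animal or culture; if they do not, the p-values reflect technical spread among arrays only.

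A cell commits to division in G1, when D cyclins with CDK4 or CDK6, and then E cyclins with CDK2, phosphorylate the retinoblastoma protein and release E2F transcription factors. E2F switches on the genes of S phase, among them the 6 subunits of the MCM helicase, which is loaded onto replication origins before S phase and unwinds DNA during it. Mitotic genes peak later. Many of their promoters carry a cell cycle homology region (CHR), through which the DREAM and MuvB complexes act, beside CCAAT boxes, which NF-Y binds.

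Promoter sequences were available in the RefSeq promoter table (assembly GRCm38.p6, windows of 250 bases before to 50 after a gene's start) for 29 of the 39 genes. They were searched on both strands for CCAAT, for the CHR as TTTGAA or TTCGAA, and for E2F sites as 4 words. The first E2F word was TTCCCGC, the next word searched was TTGGCGC, another was spelled TTCGCGC, and the last one was TTGCCGC. Of the 23 E2F matches in these windows, 3 overlapped a CCAAT match, and E2F words could overlap each other. Of the 15 windows of G2 and mitotic genes, 12 held a CHR (80.0%) and the same 12 also held a CCAAT box, against 19.2% with a CHR and 7.52% with both among all 32851 windows of the table. An E2F word was present in 3 of the 15 (20.0%). The 12 windows of S phase genes held an E2F word in 8 (66.7%), against 9.57% of all windows, and a CHR in 2 (16.7%). Among them, the 6 windows of MCM genes, from 5 genes, held an E2F word in 5 (83.3%). All 6 MCM windows held a CCAAT box, as did 37.4% of all windows, and 2 held a CHR (33.3%). These shares describe the letters of the windows and were not matched for base composition. The stretches below run from 170 bases before to 30 after the start, 5′ to 3′ on the gene's strand. They show E2F words of 2 helicase genes and CHR matches of 4 mitotic genes. The counts beside each gene are of matches within this stretch, and some of these windows hold further matches outside it. Capitals mark matches to any of the 3 motifs.
Mcm6 (helicase subunit; chr1:128359676-128359875, minus strand; 2 CCAAT and 4 E2F matches): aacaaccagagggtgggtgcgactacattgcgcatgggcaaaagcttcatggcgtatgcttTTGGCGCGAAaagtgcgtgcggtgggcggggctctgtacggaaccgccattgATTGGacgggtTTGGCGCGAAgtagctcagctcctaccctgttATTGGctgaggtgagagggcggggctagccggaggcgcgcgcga
Mcm5 (helicase subunit; chr8:75109339-75109538, plus strand; 3 CCAAT and 3 E2F matches): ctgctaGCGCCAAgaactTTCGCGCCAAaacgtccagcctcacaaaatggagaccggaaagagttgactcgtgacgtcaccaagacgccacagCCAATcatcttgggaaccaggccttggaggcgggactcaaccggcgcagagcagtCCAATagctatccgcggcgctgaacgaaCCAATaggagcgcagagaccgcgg
Cdk1 (the mitotic kinase; chr10:69352883-69353082, minus strand; 2 CHR, 2 CCAAT and 1 E2F match): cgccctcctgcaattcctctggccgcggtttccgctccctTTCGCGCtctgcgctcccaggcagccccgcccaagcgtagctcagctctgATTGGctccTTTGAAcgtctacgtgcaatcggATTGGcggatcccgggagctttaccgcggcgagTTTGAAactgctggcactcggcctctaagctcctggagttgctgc
Top2a (topoisomerase; chr11:99024160-99024359, minus strand; 3 CHR and 4 CCAAT matches): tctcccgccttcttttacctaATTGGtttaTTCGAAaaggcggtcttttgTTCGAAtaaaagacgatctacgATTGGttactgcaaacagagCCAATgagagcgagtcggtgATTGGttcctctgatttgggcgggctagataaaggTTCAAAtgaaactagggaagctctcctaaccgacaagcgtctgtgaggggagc
Ube2c (ubiquitin-conjugating enzyme of mitotic exit; chr2:164769759-164769958, plus strand; 1 CHR and 3 CCAAT matches): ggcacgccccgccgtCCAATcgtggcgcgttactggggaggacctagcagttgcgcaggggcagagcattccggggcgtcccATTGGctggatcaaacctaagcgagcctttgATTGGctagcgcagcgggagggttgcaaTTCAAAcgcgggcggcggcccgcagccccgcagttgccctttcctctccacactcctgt
Bub1 (spindle checkpoint kinase; chr2:127831830-127832029, minus strand; 1 CHR and 2 CCAAT matches): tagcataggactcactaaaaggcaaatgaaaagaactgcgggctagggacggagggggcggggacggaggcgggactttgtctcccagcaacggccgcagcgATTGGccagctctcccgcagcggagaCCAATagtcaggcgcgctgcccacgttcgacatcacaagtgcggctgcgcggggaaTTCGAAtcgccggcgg

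Values below are the deposited probe set signals, an intensity on a linear scale. Array medians lay between 347.3 and 371.2, and arrays correlated at 0.993 to 0.995 within groups and 0.950 to 0.991 between them. Fold changes are differences of log2(intensity + 16), which understates the change of dim genes, with their standard error (SE). A gene was called where limma's adjusted p over all 12393 genes was under 0.05. Zfp423 itself was higher in GFP+ arrays of both depots, by 0.94 ± 0.18 in inguinal (adjusted p = 0.00198) and 2.50 ± 0.18 in epididymal cells (adjusted p = 8.53e-09). Marker lists showed what else the groups differed in. The summed signal of 16 macrophage and leukocyte markers was 11781 to 13825 in inguinal GFP- and 2435 to 2664 in inguinal GFP+ arrays. In epididymal arrays it was 3650 to 4049 in GFP- and 3184 to 3307 in GFP+ cells. Of the 16, 7 were weakly detected (in the lowest 30% of genes by mean, under an intensity of 77.7). For 10 measured mesothelial markers the sum was 40365 to 43108 in epididymal GFP- arrays, 7439 to 7709 in epididymal GFP+ arrays and 1650 to 2316 in inguinal arrays. The sum of 9 endothelial markers, 8 of them weakly detected, was 4627 to 4886 in epididymal GFP- arrays and 437.2 to 1073 in the other groups. That sum does not stand for the list. In the epididymal GFP comparison 2 of the 9 were called higher and 1 lower, at a median log2 difference of 0.19. The mean log2 signal of the 9 was 6.37 in epididymal GFP+ and 6.32 in epididymal GFP- arrays. The sum of 8 mural cell markers was 92764 to 94933 in epididymal GFP+ and 79040 to 80259 in epididymal GFP- arrays. In inguinal arrays it was 69480 to 71932 in GFP+ and 77842 to 78278 in GFP- cells. In the depot comparisons 1 of the 8 was called higher and 6 lower in inguinal GFP+ arrays, and 5 and 3 in inguinal GFP- arrays. In the epididymal GFP comparison 4 were called higher and 3 lower. The 9 fibroblast markers summed to between 180267 and 192629 on every array, but single markers moved. Called were 4 higher and 3 lower between depots in GFP+ cells, 5 and 3 in GFP- cells, and 4 and 3 in the epididymal GFP comparison. Of all genes, 23.6% were called higher and 27.2% lower in inguinal arrays among GFP+ cells, and 27.4% and 26.3% among GFP- cells. In the epididymal GFP comparison 21.5% of all genes were called higher and 20.3% lower in GFP+ arrays. The 4 measured adipocyte markers were all weakly detected, with sums of 21.55 to 137.3. No marker stood at 0, but the signal of weakly detected markers does not show that a cell type was present. In bulk samples such as these, fewer dividing cells and less RNA per dividing cell cannot be told apart.

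**Figure D1:**
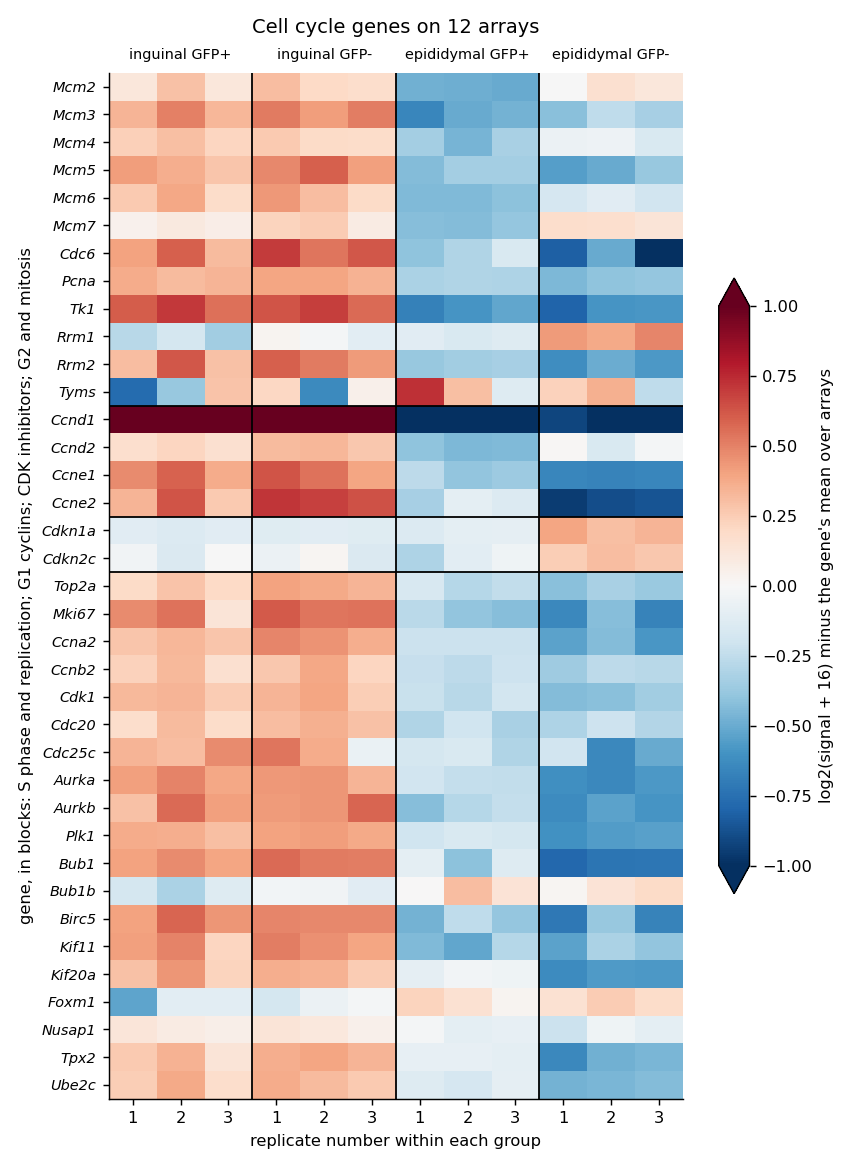
Heat map of the 37 measured genes (rows, by role) in the 12 arrays (columns, by group), as log2(intensity + 16) minus the gene's mean over all arrays; the colour scale ends at 1 in either direction. The 6 inguinal arrays are the higher for 29 genes, while they are the lower for Bub1b and Foxm1.

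Most cell cycle genes were higher in inguinal than in epididymal cultures, in both sorted populations. In GFP+ cells 31 of the 37 were called higher in inguinal arrays, against 23.6% of all genes, and 3 were called lower, against 27.2%. In GFP- cells 30 were called higher (27.4% of all genes) and 3 lower (26.3%). The median log2 difference was 0.60 in GFP+ and 0.80 in GFP- cells, beside -0.04 and -0.02 over all genes. For 29 genes all 6 inguinal arrays lay above all 6 epididymal arrays, which held for 15.1% of all genes, and for 2 they all lay below (14.6%). Macrophage, mesothelial and mural markers and the endothelial sum moved with depot as well, as given above, and their part in these differences was not tested.

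Among S phase genes, 10 of 12 were called higher in inguinal GFP+ arrays and 9 of 12 in inguinal GFP- arrays. Of all genes, 23.6% and 27.4% were. Tk1 encodes thymidine kinase, which makes thymidine monophosphate from salvaged thymidine. Its signal was 1551, 1664 and 1496 in inguinal GFP+ arrays and 1576, 1650.4 and 1511 in inguinal GFP- arrays. In epididymal arrays it was 628, 668 and 701 in GFP+ and 576, 668 and 672 in GFP- cells. The depots were thus far apart and the GFP groups within a depot overlapped. The inguinal level was 2.33-fold higher in GFP+ cells (log2 1.22 ± 0.07, adjusted p = 4.91e-10) and 2.44-fold higher in GFP- cells (1.29 ± 0.07, 9.4e-11).

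Pcna, the sliding clamp that holds DNA polymerase on its template, was measured with little spread. It stood at 10049, 9650.4 and 9800.4 in inguinal GFP+ and 10217, 10198 and 9860.2 in inguinal GFP- arrays, against 6228, 6279 and 6270.4 in epididymal GFP+ and 5666, 5848 and 5910.5 in epididymal GFP- arrays. No inguinal array came near an epididymal one. The log2 difference was 0.65 ± 0.03 in GFP+ cells (adjusted p = 1.25e-11) and 0.80 ± 0.03 in GFP- cells (2.91e-13). Rrm2, the inducible subunit of ribonucleotide reductase that supplies DNA precursors, ran from 5707 to 7170.0 in inguinal GFP+ and 6276 to 7058 in inguinal GFP- arrays. Its epididymal values were 3577 to 3702 in GFP+ and 3022 to 3298 in GFP- arrays, for log2 differences of 0.76 ± 0.07 and 1.08 ± 0.07 (adjusted p = 1.59e-07 and 1.07e-09). Cdc6, which loads the MCM helicase onto origins, was higher in inguinal cells by 0.73 in GFP+ and 1.39 in GFP- cells.

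All 6 helicase subunits were called higher in inguinal GFP+ arrays (23.6% of all genes), by 0.48 (Mcm7) to 0.94 (Mcm3) on the log2 scale. In GFP- cells 5 were called (27.4% of all genes). Mcm5 differed most there (0.97 ± 0.07, adjusted p = 2.71e-09), with 1116, 1214 and 1067 in inguinal and 540.3, 556 and 611 in epididymal arrays, and Mcm3 next (0.81 ± 0.07). Mcm7 was not called (0.03 ± 0.04, adjusted p = 0.577). Mcm2 barely was (0.14 ± 0.06, 0.0444), and that call was lost on leaving out replicate 1 (adjusted p = 0.194) or 2 (0.0625) of inguinal GFP-, or replicate 1 (0.0525), 2 (0.0556) or 3 (0.0556) of epididymal GFP+, or replicate 1 (0.207) or 3 (0.064) of epididymal GFP- cells. Mcm3 has 4 probe sets that were not weakly detected: 3 gave differences of 0.80 to 1.03 in the 2 comparisons, and the other gave -0.06 in GFP+ and -0.21 in GFP- cells, neither called.

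Rrm1, the large subunit of the same reductase as Rrm2, was the S phase gene that was lower in inguinal cells. Its signal was 3626, 3888 and 3446 in inguinal GFP+ arrays and 4484, 4323 and 4067 in inguinal GFP- arrays. The epididymal values were 4058, 3948 and 4013 in GFP+ and 5887, 5707 and 6159 in GFP- arrays, so that epididymal GFP- arrays stood above all others. The log2 difference was -0.46 ± 0.04 in GFP- cells (adjusted p = 2.08e-07). In GFP+ cells it was -0.13 ± 0.04 (adjusted p = 0.0203), a call lost on leaving out replicate 1 (adjusted p = 0.0542) or 3 (0.105) of inguinal GFP+, or replicate 1 (0.0621) or 3 (0.0512) of epididymal GFP+ cells. Tyms, thymidylate synthase, was the 1 weakly detected gene of the set, with group means of 49.9 to 81.5. It was called in none of the comparisons, although without inguinal GFP+ replicate 3 its depot difference in GFP+ cells reached -0.88, adjusted p = 0.0249.

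**Figure D2:**
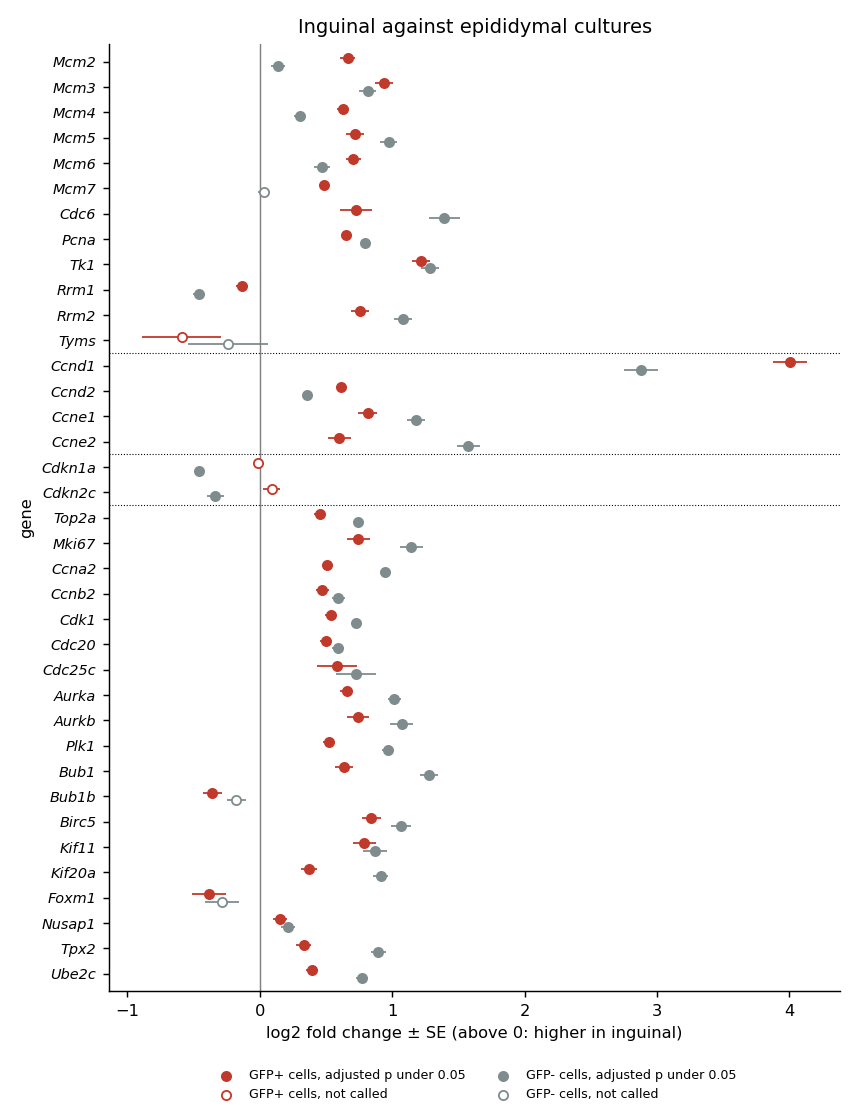
Log2 difference between inguinal and epididymal arrays (x axis, points with SE) for each gene (y axis, by role), in GFP+ and in GFP- cells; filled points passed the threshold. Most points lie right of 0, Ccnd1 lies farthest out at 4.01 and 2.88, and the mitotic genes lie farther right in GFP- than in GFP+ cells.

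Mitotic genes followed the same direction. Of 19 measured, 17 were called higher in inguinal arrays in each population, 2 were called lower in GFP+ cells and none in GFP- cells (limma; 2 at an unadjusted p under 0.05). Among all genes 23.6% were called higher and 27.2% lower in GFP+ cells, and 27.4% and 26.3% in GFP- cells. The inguinal minus epididymal difference was more positive in GFP- cells for 19 of the 19, with a median log2 value of 0.87 there and 0.51 in GFP+ cells, and 11 passed the test between the 2 populations given further on. Bub1, a kinase of the checkpoint that holds anaphase until chromosomes are attached, shows it. Its signal was 1424, 1498 and 1417 in inguinal GFP+ and 1601, 1549 and 1541 in inguinal GFP- arrays. It was 1001, 805 and 982 in epididymal GFP+ arrays and 618, 641 and 644 in epididymal GFP- arrays. The inguinal values were thus the highest and the epididymal GFP- values the lowest. Between the 2 inguinal groups Bub1 was not called (-0.11 ± 0.07, adjusted p = 0.35). The difference was 0.64 ± 0.07 in GFP+ cells (adjusted p = 1.05e-06) and 1.28 ± 0.07 in GFP- cells (1.13e-10).

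Plk1 (Polo-like kinase 1) and Aurka (Aurora kinase A) drive entry into mitosis and spindle assembly. Plk1 stood at 1393, 1385 and 1328 in inguinal GFP+ and 1420.1, 1441 and 1398 in inguinal GFP- arrays, and at 935, 963 and 948 in epididymal GFP+ and 700.5, 724 and 733 in epididymal GFP- arrays. The difference was 0.52 ± 0.04 in GFP+ and 0.97 ± 0.04 in GFP- cells (adjusted p = 8.29e-08 and 1.86e-11). Aurka gave 0.66 ± 0.05 and 1.02 ± 0.05 (adjusted p = 1.85e-08 and 3.42e-11), with 1398 to 1504 and 1352 to 1446 in the inguinal GFP+ and GFP- arrays against 895 to 929 and 673 to 708 in the epididymal ones. In both genes the 4 groups fell into an inguinal pair, an epididymal GFP+ level and a lower epididymal GFP- level.

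Ccna2 (cyclin A2), which acts from S phase to mitosis, was 3622 to 3756 in inguinal GFP+ and 3837 to 4192 in inguinal GFP- arrays, against 2569 to 2574 and 1989 to 2205 in epididymal GFP+ and GFP- arrays. It differed by 0.51 ± 0.04 in GFP+ and 0.95 ± 0.04 in GFP- cells (adjusted p = 4.83e-08 and 9.4e-12). Cdk1, the kinase that cyclins A and B activate, differed by 0.53 ± 0.04 and 0.73 ± 0.04 (adjusted p = 1.87e-08 and 1.81e-10). Mki67, whose product Ki-67 coats mitotic chromosomes and is a stain for dividing cells, gave 0.74 and 1.14. The rest of the genes called higher in both populations were Top2a, Ccnb2 (cyclin B2), Cdc20 (activator of the anaphase-promoting complex), Cdc25c (phosphatase that activates CDK1), Aurkb, Birc5 (survivin, partner of Aurora B), the kinesins Kif11 and Kif20a, Tpx2 (activator of Aurora A), Ube2c and Nusap1 (a spindle microtubule protein). The smallest difference of these was that of Nusap1, at 0.15 in GFP+ and 0.21 in GFP- cells, and its GFP+ call was lost on leaving out replicate 1 (adjusted p = 0.0884) of inguinal GFP+, or replicate 2 (0.0853) or 3 (0.0683) of epididymal GFP+ cells. Where all probe sets of a gene were averaged, which brings in weakly detected ones, Top2a gave -0.048 and 0.11, and Nusap1 0.21 and 0.065, none of them called.

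Bub1b and Foxm1 ran against their group. Bub1b encodes BubR1, which inhibits the anaphase-promoting complex in the spindle checkpoint. Its signal was 902, 816 and 935 in inguinal GFP+ and 1001, 995 and 945 in inguinal GFP- arrays, against 1028, 1270.2 and 1124 in epididymal GFP+ and 1036, 1127 and 1169.7 in epididymal GFP- arrays. All inguinal arrays were thus the lower, with a difference of -0.36 ± 0.07 in GFP+ cells (adjusted p = 0.000773). In GFP- cells the difference of -0.18 ± 0.07 missed the threshold (adjusted p = 0.0568) but passed it on leaving out replicate 2 (adjusted p = 0.0409) of inguinal GFP+, or replicate 1 (0.0362) or 2 (0.0329) of epididymal GFP+, or replicate 1 (0.031) of epididymal GFP- cells. Foxm1, a transcription factor of mitotic genes, was dim, with group means of 161 to 223. It was lower in inguinal GFP+ arrays, with a difference of -0.38 ± 0.13 (adjusted p = 0.0206), a call lost on leaving out replicate 1 (adjusted p = 0.116) of inguinal GFP+, or replicate 1 (0.0714) or 2 (0.0525) of epididymal GFP+ cells. In GFP- cells it gave -0.28 ± 0.13 (adjusted p = 0.0732), called on leaving out replicate 1 (adjusted p = 0.0348) of inguinal GFP+ cells. Another Foxm1 probe set gave the opposite sign, 0.40 in GFP+ cells (adjusted p = 0.0965) and 0.57 in GFP- cells (adjusted p = 0.0175), so the 2 probe sets disagree on this gene. Among probe sets not weakly detected, Kif11 was the other mitotic gene with a dissenting one, at -0.29 in GFP+ cells (adjusted p = 0.223) beside 0.67 and 0.79 in its other probe sets.

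The largest depot difference of all 37 genes was that of Ccnd1, cyclin D1, which couples growth factor signals to CDK4 and CDK6. Its signal was 5037, 7495 and 5088 in inguinal GFP+ and 6448, 6043 and 5775 in inguinal GFP- arrays. In epididymal arrays it was 349, 328 and 356 in GFP+ and 938, 670.0 and 854 in GFP- cells. The lowest inguinal array was thus several times above the highest epididymal one. The inguinal level was 16.1-fold higher in GFP+ cells (log2 4.01 ± 0.13, adjusted p = 8.92e-13) and 7.36-fold higher in GFP- cells (2.88 ± 0.13, 1.39e-11). All 3 of its probe sets were called in the same direction, at 3.49 to 4.55 in GFP+ cells.

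The other G1 cyclins were also higher in inguinal cells in both populations, by less. Ccnd2 (cyclin D2) differed by 0.61 ± 0.04 in GFP+ and 0.36 ± 0.04 in GFP- cells (adjusted p = 7.9e-10 and 2.21e-07). Ccne1 (cyclin E1) gave 0.82 ± 0.07 and 1.18 ± 0.07 (adjusted p = 1.02e-07 and 5.37e-10). Ccne2 (cyclin E2) had 866, 1061 and 820.5 in inguinal GFP+ and 1124, 1099 and 1065 in inguinal GFP- arrays, and 537, 633 and 619 in epididymal GFP+ and 344, 361 and 366 in epididymal GFP- arrays. All epididymal values of Ccne2 lay below all inguinal ones. The 2 inguinal groups were apart by 1061 against 1065 only, and their difference was not called (-0.26 ± 0.09, adjusted p = 0.062). The depot difference was 0.60 ± 0.09 in GFP+ and 1.58 ± 0.09 in GFP- cells (adjusted p = 2.81e-05 and 1.95e-10), the latter a 2.98-fold higher inguinal level. The 2 CDK inhibitors did not share this pattern. Cdkn1a (p21), which p53 induces, and Cdkn2c (p18), which blocks CDK4 and CDK6, gave -0.01 ± 0.02 and 0.09 ± 0.06 in GFP+ cells, neither called (adjusted p = 0.711 and 0.265). In GFP- cells both were called lower in inguinal arrays, with differences of -0.46 ± 0.02 and -0.34 ± 0.06 (adjusted p = 1.5e-10 and 0.000276).

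**Figure D3:**
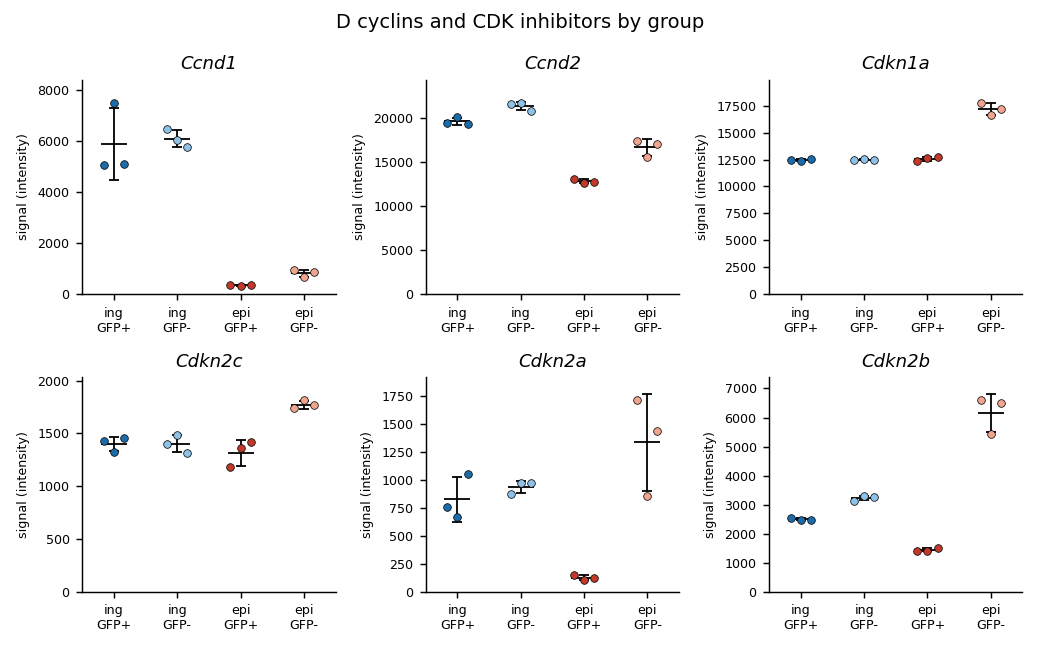
Signal (y axis, linear intensity from 0) of 2 D cyclins and 4 CDK inhibitors in each group (x axis); points are arrays, the bar is the mean and the whiskers its SD (n = 3). Ccnd1 separates the depots, while the epididymal GFP- mean is the highest for Cdkn1a, Cdkn2c, Cdkn2a and Cdkn2b.

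Within the epididymal depot, GFP+ and GFP- cells differed in cell cycle genes in both directions. Of the 37 genes 16 were called higher in GFP+ cells, against 21.5% of all genes, and 10 lower, against 20.3%. Of the 19 mitotic genes 11 were called higher and none lower, while 5 of the 6 helicase subunits were called lower and none higher (limma; neither count of 0 grew at an unadjusted p under 0.05). The other 6 S phase genes had 3 higher and 1 lower, and the G1 cyclins 2 and 2. Median log2 differences were 0.22 for mitotic genes and -0.28 for the helicase, beside 0.01 over all genes. Summed mesothelial markers were several times lower in the GFP+ arrays of this depot (values above), 9 of the 10 being called lower. Summed macrophage and leukocyte markers were lower too, with 8 of 16 called lower and 1 higher. Mural and endothelial sums differed as well, though single markers of both lists were called in both directions. Their part in these differences was not tested.

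The helicase subunits Mcm2 and Mcm7 showed the lower side. Mcm2 stood at 1415, 1414 and 1393 in epididymal GFP+ and 1977, 2221 and 2148 in epididymal GFP- arrays, while the inguinal groups had 2145, 2439 and 2148 (GFP+) and 2458, 2283 and 2248 (GFP-). Epididymal GFP+ cells were thus the 1 group that stood apart. The log2 difference between GFP+ and GFP- was -0.58 ± 0.06 (adjusted p = 2.42e-07), 1.5-fold lower in GFP+ cells. Mcm7 repeated this, with 2952, 2922 and 3031 in epididymal GFP+ and 4482, 4460.5 and 4324 in epididymal GFP- arrays against 4082 to 4242 and 4202 to 4734 in the inguinal GFP+ and GFP- arrays. Its difference was -0.57 ± 0.04 (adjusted p = 4.64e-09). Mcm4 (-0.29 ± 0.04, adjusted p = 5.91e-05) and Mcm6 (-0.27 ± 0.06, 0.00102) were lower by less. Mcm3 gave -0.21 ± 0.07 (adjusted p = 0.0179), lost on leaving out replicate 1 (adjusted p = 0.0912) of epididymal GFP+, or replicate 2 (0.0802) of epididymal GFP- cells, and none of its other probe sets was called. Mcm5 was not called (0.11 ± 0.07, adjusted p = 0.225).

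Rrm1 fell with the helicase, by 0.56 ± 0.04 (adjusted p = 3.05e-08), and no array of the 2 epididymal groups overlapped. The other reductase subunit Rrm2 gave 0.21 ± 0.07 in the opposite direction (adjusted p = 0.0197), lost on leaving out replicate 2 (adjusted p = 0.0539) or 3 (0.0659) of epididymal GFP+, or replicate 1 (0.0806) or 3 (0.0542) of epididymal GFP- cells. Cdc6 rose by 0.49 ± 0.12 (adjusted p = 0.00333), from 204, 256 and 176 in GFP- to 276, 297 and 331 in GFP+ arrays. Pcna rose by 0.11 ± 0.03 (adjusted p = 0.00319). Tk1 was not called (0.06 ± 0.07, adjusted p = 0.534).

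Mitotic genes made up the higher side. Kif20a, a kinesin needed for cytokinesis, stood at 926, 967 and 955 in epididymal GFP+ and 629, 659 and 656 in epididymal GFP- arrays. The inguinal values were 1208, 1344 and 1153 in GFP+ and 1269.6, 1259 and 1175 in GFP- arrays, so the epididymal GFP- level was the lowest of 4. The difference was 0.54 ± 0.06 (adjusted p = 1.18e-06), 1.45-fold. Bub1 rose by 0.53 ± 0.07 (6.9e-06), Tpx2 by 0.44 ± 0.06 (7.8e-06), Plk1 by 0.39 ± 0.04 (1.89e-06) and Aurka by 0.39 ± 0.05 (6.38e-06), all with groups that did not overlap. The other Tpx2 probe set, not weakly detected, had the same sign but was not called, here or for the difference between depots given further on. Smaller rises were those of Ube2c (0.33), Ccna2 (0.30), Cdk1 (0.17) and Top2a (0.14). Bub1 and Top2a were not called where all probe sets of a gene were averaged (adjusted p = 0.308 and 0.742), which brings in a weakly detected probe set of each.

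Aurkb (0.27 ± 0.08, adjusted p = 0.0169) and Birc5 (0.22 ± 0.07, 0.0269), partners in the chromosomal passenger complex, were called less firmly. Aurkb was lost on leaving out replicate 2 (adjusted p = 0.0524) or 3 (0.0683) of epididymal GFP+, or replicate 1 (0.0532) of epididymal GFP- cells. Birc5 was lost on leaving out replicate 2 (adjusted p = 0.141) or 3 (0.0582) of epididymal GFP+, or replicate 1 (0.141) or 3 (0.112) of epididymal GFP- cells, and its groups overlapped. Mki67 gave 0.22 ± 0.09 and missed the threshold (adjusted p = 0.057), but passed it on leaving out replicate 2 (adjusted p = 0.0316) or 3 (0.00759) of inguinal GFP+, or replicate 2 (0.0166) of epididymal GFP- cells. The differences of Ccnb2, Cdc20, Cdc25c, Bub1b, Kif11, Foxm1 and Nusap1 lay between -0.06 (Foxm1) and 0.24 (Cdc25c) and were not called.

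**Figure D4:**
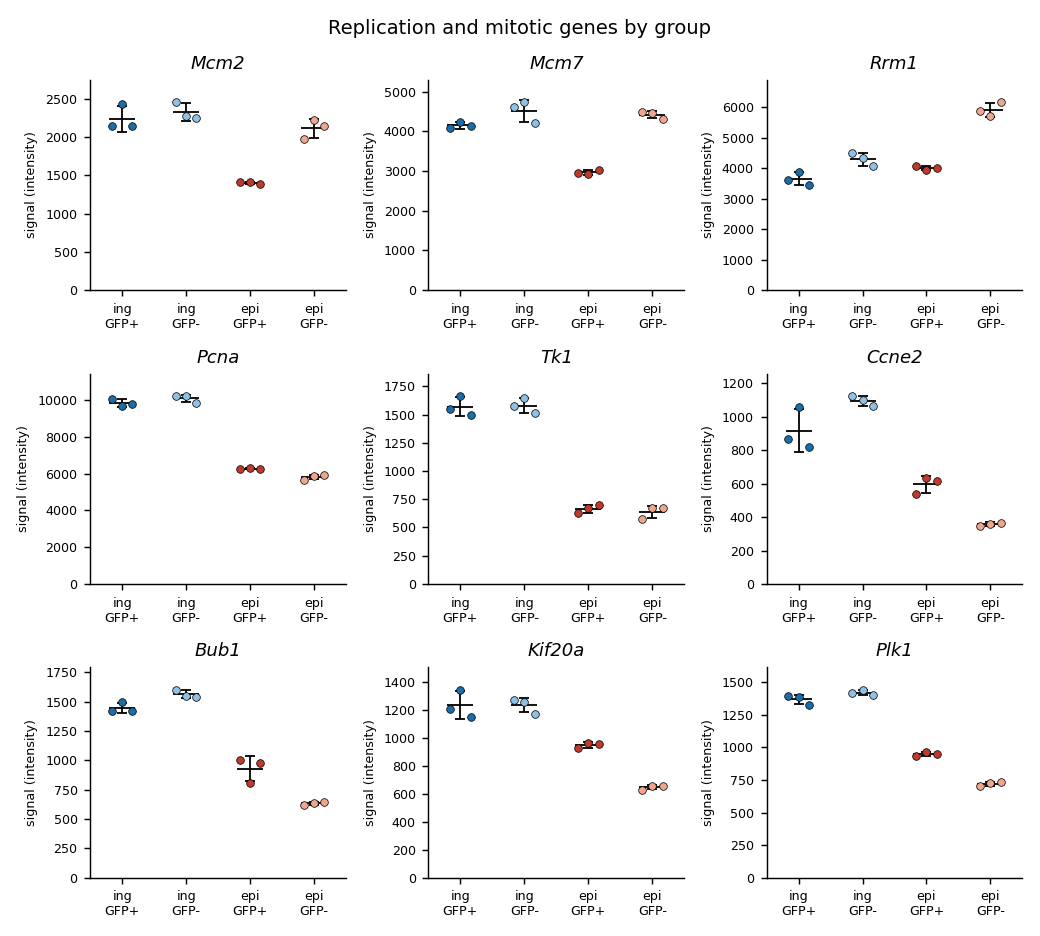
Signal (y axis, linear intensity from 0) of 6 genes of replication and G1 (Mcm2, Mcm7, Rrm1, Pcna, Tk1, Ccne2) and 3 of mitosis (Bub1, Kif20a, Plk1) in each group (x axis: ing, inguinal; epi, epididymal); points are arrays, the bar is the mean and the whiskers its SD (n = 3). Epididymal GFP+ arrays are the lowest for Mcm2 and Mcm7, and epididymal GFP- arrays are the lowest for Ccne2 and the 3 mitotic genes.

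The G1 cyclins split by type in epididymal cells. The D cyclins were lower in GFP+ cells, Ccnd1 with a log2 difference of -1.20 ± 0.13 (adjusted p = 1.02e-06), a 2.3-fold lower level, and Ccnd2 with -0.38 ± 0.04 (adjusted p = 1.93e-07). Ccnd2 had 13101, 12649 and 12718 in GFP+ and 17401, 15544 and 17017 in GFP- arrays. The E cyclins were higher in GFP+ cells, Ccne2 by 0.71 ± 0.09 (adjusted p = 4.56e-06) and Ccne1 by 0.32 ± 0.07 (0.00146). Both CDK inhibitors were lower in GFP+ cells. Cdkn1a stood at 12353, 12654 and 12701 in GFP+ and 17783, 16654 and 17168 in GFP- arrays, a difference of -0.45 ± 0.02 (adjusted p = 2.81e-10), and its inguinal values of 12351 to 12528 (GFP+) and 12465 to 12553 (GFP-) were near those of epididymal GFP+ arrays. Cdkn2c gave -0.43 ± 0.06 (adjusted p = 3.76e-05), from 1741, 1814 and 1766 in GFP- to 1180.3, 1358 and 1415 in GFP+ arrays.

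Within the inguinal depot the differences between GFP+ and GFP- cells in cell cycle genes were small, and few genes of any kind were called. None of the 37 was called higher in GFP+ cells by limma (0 also at an unadjusted p under 0.05), against 5.26% of all genes. Called lower were 4, or 10.8% (8 unadjusted), against 7.29% of all genes. The difference was negative for 34 of the 37 and positive for 3. The median log2 difference was -0.08, beside -0.01 over all genes. Summed macrophage and leukocyte markers were several times lower in the GFP+ arrays (values above), with 12 of 16 called lower. Summed mural markers were lower too (values above), with 5 of 8 called lower and 1 higher. The part of both lists in these differences was not tested. Rrm1 fell by 0.23 ± 0.04 (adjusted p = 0.00211), with the values given above, and its groups did not overlap. The other 3 were small differences in Ccnd2 (-0.12, adjusted p = 0.029), Top2a (-0.15, 0.0204) and Ccna2 (-0.14, 0.0396). Ccnd2 was lost on leaving out replicate 1 (adjusted p = 0.0988) or 3 (0.0904) of inguinal GFP+, or replicate 1 (0.0989) or 2 (0.111) of inguinal GFP- cells. Top2a was lost on leaving out replicate 1 (adjusted p = 0.0939) or 3 (0.072) of inguinal GFP+, or replicate 1 (0.0893) or 2 (0.0717) of inguinal GFP- cells. Ccna2 was lost on leaving out replicate 1 (adjusted p = 0.126) or 3 (0.112) of inguinal GFP+, or replicate 1 (0.186) or 2 (0.125) of inguinal GFP-, or replicate 2 (0.0538) or 3 (0.0542) of epididymal GFP+ cells. The count of genes called lower ran from 1 to 8 as arrays were left out in turn, reaching 8 without inguinal GFP+ replicate 2, when Mcm7, Rrm2, Ccne2 and Cdc20 were called as well (log2 -0.13, -0.22, -0.37 and -0.14). Mcm7 was called on leaving out replicate 2 (adjusted p = 0.0495) of inguinal GFP+, or replicate 3 (0.00435) of inguinal GFP- cells, and Ccne2 on leaving out replicate 2 (adjusted p = 0.00324) of inguinal GFP+, or replicate 1 (0.0466) of epididymal GFP+ cells. The CDK inhibitors gave -0.0048 ± 0.02 for Cdkn1a and -0.0012 ± 0.06 for Cdkn2c, neither called. Where all probe sets of a gene were averaged, Cdc20 turned from -0.09 (adjusted p = 0.196) to 0.27, adjusted p = 0.0365.

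**Figure D5:**
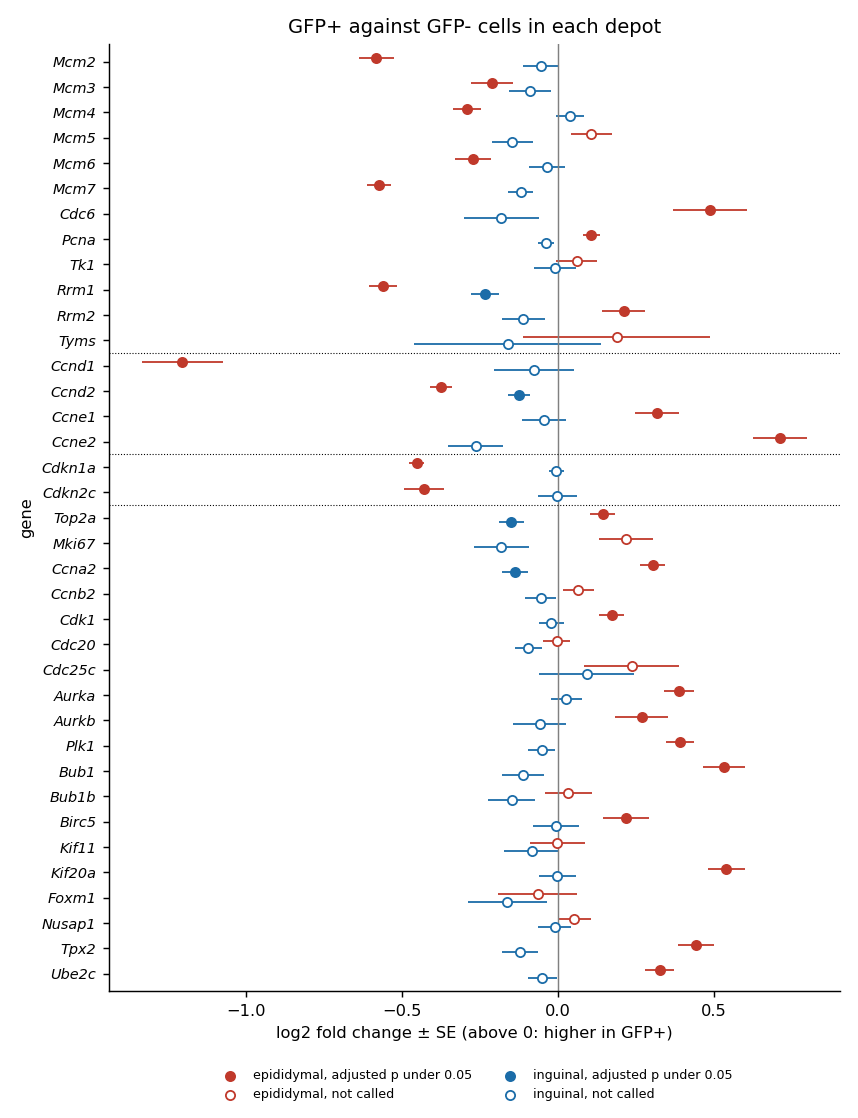
Log2 difference between GFP+ and GFP- arrays (x axis, points with SE; above 0 is higher in GFP+) for each gene (y axis, by role), in epididymal and inguinal cells; filled points passed the threshold. In epididymal cells 5 of the 6 helicase subunits, Rrm1, both D cyclins and both CDK inhibitors lie left of 0 and the called mitotic genes right of it, while inguinal points stay within -0.26 and 0.09.

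Whether the GFP difference was itself unlike in the 2 depots was tested as the inguinal difference minus the epididymal one. Of the 37 genes 26 passed, against 34.8% of all genes: 9 with a more positive difference in inguinal cells, against 16.1% of all genes, and 17 with a more negative one, against 18.7%. The median was -0.18, beside -0.02 over all genes. Among mitotic genes 11 of 19 were more negative and none more positive (limma; 0 also at an unadjusted p under 0.05), with a median of -0.29. Bub1 (-0.64 ± 0.10, adjusted p = 5.37e-05), Tpx2 (-0.56 ± 0.08, 3.56e-05), Ccna2 (-0.44 ± 0.06, 1.66e-05) and Plk1 (-0.44 ± 0.06, 3.23e-05) were among them. Among helicase subunits Mcm2 (0.53 ± 0.08, 5.43e-05), Mcm7 (0.45 ± 0.06, 7.22e-06) and Mcm4 (0.33 ± 0.06, 0.00067) were more positive. Mcm6 (0.24, 0.0321) was lost on leaving out replicate 2 (adjusted p = 0.074) of inguinal GFP+, or replicate 2 (0.0605) or 3 (0.0925) of inguinal GFP-, or replicate 1 (0.0585) or 2 (0.0661) of epididymal GFP+, or replicate 1 (0.0527) or 2 (0.0722) of epididymal GFP- cells. Mcm5 alone of the helicase was more negative (-0.25, 0.0474), a call lost on leaving out replicate 2 (adjusted p = 0.0621) or 3 (0.113) of inguinal GFP+, or replicate 1 (0.0736) or 2 (0.137) of inguinal GFP-, or replicate 2 (0.0955) or 3 (0.0897) of epididymal GFP+, or replicate 1 (0.107) or 2 (0.0885) of epididymal GFP- cells. The largest differences of either sign were those of cyclins: Ccnd1 at 1.13 ± 0.18 (adjusted p = 0.000127) and Ccne2 at -0.98 ± 0.12 (9.81e-06). Cdkn1a gave 0.45 ± 0.04 (4.22e-08) and Rrm1 0.33 ± 0.06 (0.000628). Aurkb (-0.33, 0.0449) was lost on leaving out replicate 1 (adjusted p = 0.122) or 3 (0.0775) of inguinal GFP+, or replicate 1 (0.055), 2 (0.0611) or 3 (0.119) of inguinal GFP-, or replicate 2 (0.0857) or 3 (0.0996) of epididymal GFP+, or replicate 1 (0.085) or 3 (0.0729) of epididymal GFP- cells. Mki67 (-0.40, 0.019) was lost on leaving out replicate 1 (adjusted p = 0.0531) of epididymal GFP+, or replicate 1 (0.0503) or 3 (0.0531) of epididymal GFP- cells. With probe sets averaged Bub1 and Top2a were lost as well (adjusted p = 0.147 and 0.787), and with median centring Pcna and Cdk1 (0.0871 and 0.0843). Birc5 was not called (-0.22, 0.119) but was on leaving out replicate 2 (adjusted p = 0.0482) of inguinal GFP+, or replicate 2 (0.00562) of epididymal GFP- cells.

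Further genes of the same pathways were read from lists outside the 39. Of 34 measured replication genes 28 were called higher and 2 lower in inguinal GFP+ arrays, and 26 and 1 in GFP- arrays. The shares of all genes called higher and lower were 23.6% and 27.2% in GFP+ cells and 27.4% and 26.3% in GFP- cells. Those called higher included Uhrf1, which carries DNA methylation through replication (1.04 in GFP+, 1.06 in GFP- cells), and Dut, which removes dUTP (0.58 and 0.52). Of 40 further mitotic genes 33 were higher and 2 lower in GFP+ cells, and 35 and 2 in GFP- cells, with Cenpf, a kinetochore protein, at 1.38 in GFP- cells. In the epididymal GFP comparison the further mitotic genes had 20 called higher and 4 lower, beside 21.5% and 20.3% of all genes. Higher were Pbk, a mitotic kinase (0.52 ± 0.06, adjusted p = 2.52e-06), and Prc1, which bundles spindle microtubules (0.40 ± 0.05, 4.31e-06). The further replication genes had 8 higher and 7 lower, shares near those of all genes. Among the lower were Cdt1, which loads the helicase with Cdc6 (-0.56 ± 0.06, 8.68e-07), and the origin recognition subunit Orc6 (-0.52 ± 0.05, 4.53e-07). In the inguinal GFP comparison 2 of the 34 and 3 of the 40 were called lower and none higher (limma; 0 and 1 at an unadjusted p under 0.05), and the lower shares were near the 7.29% of all genes.

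Of 20 measured genes of G1 and the restriction point, 8 were called higher and 5 lower in inguinal GFP+ arrays, and 8 and 6 in inguinal GFP- arrays. The lower shares were near those of all genes (27.2% and 26.3%), and all genes called higher made up 23.6% and 27.4%. Myc was higher in inguinal cells of both populations (0.85 in GFP+, 0.94 in GFP-), and its paralogue Mycn was lower (-1.79 and -4.06). Mycn stood at 1890.1, 2035 and 1856 in epididymal GFP- and 241, 309 and 348 in epididymal GFP+ arrays, and its inguinal values were 59.8, 94.8 and 71.0 (GFP+) and 91.1, 108 and 103 (GFP-). Epididymal GFP- cells thus held by far the highest level, and the epididymal GFP difference was -2.64 ± 0.14 (adjusted p = 2.66e-10). Cdk4, the partner of D cyclins, was lower in epididymal GFP+ cells (-0.36 ± 0.03, 6.26e-08). Rb1, the retinoblastoma protein that D cyclin kinases phosphorylate, was higher there (0.48 ± 0.05, 4.37e-07).

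Of 5 further CDK inhibitors, 2 were called higher and 2 lower in epididymal GFP+ cells, beside 21.5% and 20.3% of all genes. Cdkn2b (p15) stood at 6589.5, 5417 and 6494 in GFP- and 1417, 1409 and 1505 in GFP+ arrays, and fell by 2.08 ± 0.06 (adjusted p = 6.29e-14). Cdkn2a, its neighbour in the genome, encodes p16 and p19Arf, which were not told apart here. From 1710.4, 859 and 1434 it dropped to 148, 106 and 120.5, and so fell by 3.22 ± 0.20 (adjusted p = 1.45e-09). In inguinal cells Cdkn2a stood at 756, 665 and 1054 in GFP+ and 876, 971 and 968 in GFP- arrays, so epididymal GFP+ cells were the 1 group with a low level. Cdkn2d (p19) was called higher in epididymal GFP+ cells (0.38 ± 0.05, 2.57e-05).

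Several members have more than 1 probe set. In the epididymal GFP comparison all 24 further probe sets of called genes that were not weakly detected had the sign of the one used. Of these 20 were called as well, the exceptions being in Mcm3 and Tpx2. For the difference between depots 21 of 21 shared the sign and 17 were called, the exceptions being in Aurkb, Mcm6, Rrm2 and Tpx2. In the depot comparisons the sign was shared by 25 of 28 in GFP+ and 22 of 24 in GFP- cells, and the call by 25 and 21. Probe sets with another call were those of Mcm3, Kif11 and Foxm1 in GFP+ and of Mcm3, Kif11 and Mcm4 in GFP- cells. In the inguinal GFP comparison 8 of 8 shared the sign and 2 were called.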

How the data were processed

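Per the labels' protocols, RNA of the cultured fibroblasts was extracted with Trizol, cleaned on RNeasy columns and amplified to cRNA carrying biotin, which was read on 12 Affymetrix arrays. The authors' deposited values are probe set signals, an intensity on a linear scale with a largest value of 46213. What algorithm, background correction and scaling lie behind them is not given in the sources used here. No further normalization was applied, since array medians differed by at most 0.0919 on the log2 scale.

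Of 22626 probe sets, 20380 carried 1 gene symbol in the platform annotation, 691 several and 1555 none. Only the first kind was used, so a gene whose probe sets all name several genes was not analysed here. Symbols were updated with the RefSeq gene table of GRCm38.p6, and 24 had no current match. Values were taken as log2(intensity + 16). Each gene was read from its brightest probe set by mean over the arrays, leaving 12393 genes. Some probe sets can cross-hybridise: 6 of the 37 members were read from a probe set whose identifier marks shared sequence. Levels of different probe sets were not compared.

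Groups came from the sample labels. The 5 comparisons set GFP+ against GFP- within each depot, the depots against each other within each sorted population, and the inguinal GFP difference against the epididymal one. The comparisons share arrays. They were fitted over all 12 arrays with limma 3.58.1 in R 4.3.3 (lmFit, then eBayes with a variance trend), with Benjamini-Hochberg adjustment over all genes and a threshold of 0.05. The fit was tested on simulated data. With 3 arrays a group, precision is limited by their number. The members, the other gene lists and the tests were chosen with earlier results of these data known.

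Values in every array were given for members that, per role and comparison, had the smallest adjusted p (up to 4), or the 2 brightest where none was called, and of other lists up to 3 called genes were eligible per comparison. This rule yielded 147 pairs of gene and comparison, from 23 member genes and 38 others. Not all of them are named, some are given as ranges, and the text gives values by array for a few other members, chosen after their values were seen. The fit was repeated with arrays left out one at a time, with the replicate number as a block, without the variance trend, on the compared groups alone, and without weakly detected genes. It was also repeated after median centring or quantile normalization, with a pseudocount of 1 or 64, and with all probe sets of a gene averaged. Same-numbered arrays of different groups did not deviate together (correlations of -0.0572 to 0.0442 over 18 pairs), so the numbers were not treated as pairing samples.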

Additional observations from a re-analysis of the deposited data

Results flagged for a closer look

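The difference between GFP+ and GFP- arrays was itself unlike in the 2 depots for 26 of the 37 cell cycle genes, by limma's test of inguinal minus epididymal (adjusted over all genes). Values are on the log2 scale. In 9 genes it was more positive in inguinal cells: Ccnd1 1.13, Mcm2 0.53, Mcm7 0.45, Cdkn1a 0.45, Cdkn2c 0.43, Rrm1 0.33, Mcm4 0.33, Ccnd2 0.25 and Mcm6 0.24. They are helicase subunits, D cyclins, CDK inhibitors and the large reductase subunit, and all 9 were called lower in epididymal GFP+ than GFP- cells. It was more negative in inguinal cells for 6 genes of S phase and the G1 cyclins: Ccne2 -0.98, Cdc6 -0.67, Ccne1 -0.36, Rrm2 -0.32, Mcm5 -0.25 and Pcna -0.15. The remaining 11 were mitotic genes, namely Bub1 -0.64, Tpx2 -0.56, Kif20a -0.54, Plk1 -0.44, Ccna2 -0.44, Mki67 -0.40, Ube2c -0.38, Aurka -0.36, Aurkb -0.33, Top2a -0.29 and Cdk1 -0.19. Summed mesothelial, endothelial, mural and macrophage markers differed between epididymal GFP+ and GFP- arrays, as given above. Between the inguinal ones summed macrophage and mural markers differed. What part these cell markers had in the differences was not tested.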

How the results depend on the processing

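Of 3880 values of single genes under alternatives, 3736 kept their direction and side of the threshold, 112 lost the call, 29 gained one and 3 reversed. The 3 arose where probe sets were averaged, which brings in weakly detected ones: Cdc20 gave 0.27 in the inguinal GFP comparison and 0.37 for the difference between depots, and Top2a -0.048 for the depots in GFP+ cells. Called under every setting were 1 of 4 genes in the inguinal GFP comparison (Rrm1), 20 of 26 in the epididymal one, 17 of 26 for their difference, 30 of 34 for the depots in GFP+ and 30 of 33 in GFP- cells. In the inguinal GFP comparison genes called higher numbered 1 with the mean of probe sets. Genes called lower there numbered 2 with median centring, 2 with the mean of probe sets, 1 without a variance trend, and 1 to 8 with each array left out. Leaving out arrays gave 1 to 3 called lower for the depots in GFP+ cells. In GFP- cells 5 were called lower with weakly detected genes left out and 5 with only the compared groups. The S phase median in the epididymal GFP comparison was -0.21 with weakly detected genes left out and -0.13 to -0.040 with each array left out. For the difference it was 0.082 with median centring, 0.12 with weakly detected genes left out and -0.022 to 0.083 with each array left out. For the depots in GFP- cells it was 0.80 with weakly detected genes left out and 0.43 with the mean of probe sets. The mitotic median with each array left out was -0.11 to -0.031 in the inguinal and 0.19 to 0.29 in the epididymal GFP comparison, and 0.84 to 0.92 for the depots in GFP- cells. There it was 0.80 with a pseudocount of 64 and 0.76 with the mean of probe sets. For the difference it was -0.24 with median centring. That scaling also moved all genes called for the difference from 2000 higher and 2313 lower to 2451 and 1880, and the members from 9 and 17 to 9 and 13. The cause was not tested. With the replicate block 17 genes were called higher and 10 lower in the epididymal GFP comparison and 5 lower in the inguinal one, and the counts of the other comparisons stayed as reported. Single calls still changed with the block: for the difference Mcm5 was lost (adjusted p = 0.0619) and Birc5 called (0.0273), Mki67 was called in the epididymal GFP comparison (0.0256) and Cdc20 in the inguinal one (0.0468). The number of arrays limits what can be told of small differences, and levels of dim genes such as Tyms and Foxm1 are poorly measured.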

Other observations

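A list of targets of p53, the factor that halts the cycle after DNA damage, also named Trp53, the gene of p53 itself. Of its 15 measured genes 14 were called lower in epididymal GFP+ than GFP- cells and 1 was higher. Among all genes 20.3% were lower and 21.5% higher. The median log2 difference was -0.46, beside 0.01 over all genes. Perp, which also acts in cell junctions of epithelia, differed most of those named (-3.15 ± 0.14, adjusted p = 2.94e-11). Its signal was 2392, 2207 and 2305 in epididymal GFP- and 241, 261 and 233 in epididymal GFP+ arrays, and 3.46 to 12.5 and 20.8 to 25.3 in inguinal GFP+ and GFP- arrays. Btg2, an antiproliferative gene, gave -1.22 ± 0.03 (2.19e-14) and Trp53inp1, a stress-induced p53 cofactor, -1.03 ± 0.04 (1.42e-11). In GFP- cells 12 of the 15 were lower and 1 higher in inguinal arrays, with a median of -0.69, beside 26.3% and 27.4% of all genes. In the inguinal GFP comparison 2 were higher and 3 lower, beside 5.26% and 7.29%. Mesothelial marker sums moved the same way in the epididymal comparison, and their part was not tested.

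Genes linked to growth arrest moved both ways, with 7 of 12 called higher and 4 lower in epididymal GFP+ cells, beside 21.5% and 20.3% of all genes. Txnip, which restrains glucose uptake, was higher (0.48 ± 0.03, 5.07e-09). Gas6, a ligand of TAM receptors, was lower (-1.11 ± 0.06, 5.68e-10), as was the transcription factor Foxo1 (-0.66 ± 0.06, 2.22e-07). Between depots Foxo1 was lower in inguinal cells of both populations (-0.96 in GFP+, -1.33 in GFP-).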
